A study of Mus musculus with 24 samples.

Results

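The variable (V), diversity (D) and joining (J) segments of the T cell receptor beta chain, named Trbv, Trbd and Trbj, were followed across sorted CD8 and CD4 cells of tumor-bearing mice. Members were all genes whose symbol begins with Trbv, Trbd or Trbj, which gave 51 of the 55025 genes measured, namely 35 Trbv, 2 Trbd and 14 Trbj. The 24 libraries form 8 groups of 3, made by tissue (tumor, spleen), sorted population (CD45+ CD8+, CD45+ CD4+) and treatment (LCL161, vehicle). Every mouse, vehicle-treated ones included, was TCRα-/-, that is, carried a disrupted gene for the alpha chain of the receptor, and carried a pancreatic tumor grown in the pancreas from implanted M8 organoids; no group with an intact alpha chain gene is among the samples. LCL161, a SMAC mimetic that triggers the loss of cIAP1 and cIAP2, was gavaged at 75 mg/kg in 3 doses spaced 3 days apart from day 4, and organs were taken on day 12. The labels give no ages, do not say whether a library pools mice, and do not tell whether each replicate came from its own mouse. P-values here therefore measure only the spread between these samples.

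A beta chain gene is assembled in the developing T cell by joining a D to a J segment and then a V segment to both. Trbd1 and the Trbj1 segments lie before the constant gene Trbc1, and Trbd2 and the Trbj2 segments lie before Trbc2, so a join to Trbj1 is normally spliced to Trbc1 and a join to Trbj2 to Trbc2. Each clone of T cells carries its own join, so the V and J segments counted in a population depend in part on its clones and their RNA. Counts per gene do not tell joined segments from unjoined ones. Without an alpha chain, mice lack ordinary alpha beta T cells, keep gamma delta T cells, and are known to hold CD4+ cells that carry beta chains without an alpha chain.

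All members lie on chromosome 6 of GRCm38 between positions 40891229 and 41558452, with Trbv31 on the minus strand after the constant genes. GENCODE M21 annotates 14 of them as pseudogenes, namely 13 Trbv and Trbj2-6. A Trbv segment that is not a pseudogene has 335 to 566 exon bases, a Trbj 46 to 54 and a Trbd 12 to 14. The D segments are printed because they are the shortest members and are rich in G, Trbj1-2 because it passed a test between groups, and 4 other J segments as examples of those that led a CD4 library. Capitals in the J segments mark the bases that encode the phenylalanine-glycine-any-glycine motif at which the hypervariable loop (CDR3) ends, found as TTTGGNNNNGGN or TTCGGNNNNGGN on the coding strand. Of the 14 Trbj segments 11 hold it (78.6%), as do 53 of the 80 other J segments of GENCODE M21 (66.2%). Trbd1 lies at chr6:41533201-41533212 and Trbd2 at chr6:41542163-41542176, and the J segments are in the order of the chromosome, from chr6:41534001-41534048 (Trbj1-2) to chr6:41543810-41543856 (Trbj2-7), all on the plus strand.
Trbd1: gggacagggggc
Trbd2: gggactgggggggc
Trbj1-2: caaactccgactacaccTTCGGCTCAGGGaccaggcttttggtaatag
Trbj1-3: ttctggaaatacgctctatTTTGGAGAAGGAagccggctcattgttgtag
Trbj1-4: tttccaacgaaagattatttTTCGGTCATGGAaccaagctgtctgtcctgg
Trbj2-4: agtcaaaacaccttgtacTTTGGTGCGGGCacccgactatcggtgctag
Trbj2-7: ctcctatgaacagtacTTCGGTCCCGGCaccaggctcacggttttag

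Trbv12-1 (chr6:41113550-41114067) and Trbv12-2 (chr6:41118851-41119364) are neighbouring paralogs, and part of each is printed because 1 or the other led 6 of the 12 CD4 libraries. Both have 372 coding bases, of which 328 are identical (88.2%) and 44 differ. The stretch shown is coding bases 73 to 372, and capitals mark the 32 bases of it that differ. The longest run without a difference is 44 bases. A read that fits within such a run could be assigned to either gene, so the split between them is uncertain. Trbv13-1, Trbv13-2 and Trbv13-3 are likewise 84.4% to 90.6% identical to each other.
Trbv12-1: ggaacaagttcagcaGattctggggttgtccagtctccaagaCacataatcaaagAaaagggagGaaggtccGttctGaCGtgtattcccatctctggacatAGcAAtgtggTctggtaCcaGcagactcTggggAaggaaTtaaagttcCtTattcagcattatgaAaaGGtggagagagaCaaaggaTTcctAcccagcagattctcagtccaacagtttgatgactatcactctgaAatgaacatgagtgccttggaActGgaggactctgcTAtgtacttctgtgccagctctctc
Trbv12-2: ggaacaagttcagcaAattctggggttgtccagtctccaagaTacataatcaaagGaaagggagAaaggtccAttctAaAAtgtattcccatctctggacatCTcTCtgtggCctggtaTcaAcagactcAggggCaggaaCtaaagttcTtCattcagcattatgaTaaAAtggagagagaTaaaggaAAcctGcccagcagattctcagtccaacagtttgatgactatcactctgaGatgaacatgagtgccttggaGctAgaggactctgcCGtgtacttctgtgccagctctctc

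Library totals ran from 15455227 to 25144888 counts. The marker genes for the CD4 lineage (Cd4 and Zbtb7b) summed to 10.1 to 35.9 CPM (counts scaled to the size of the library) in CD8 libraries and to 728 to 1483 CPM in CD4 libraries. CD8 lineage genes (Cd8a, Cd8b1 and Runx3) summed to 1120 to 2403 CPM in CD8 libraries and 74.0 to 232 CPM in CD4 libraries. Trac, the alpha chain constant gene, had 9.30 to 35.5 CPM in CD8 libraries and 63.2 to 1082 CPM in CD4 libraries; the labels do not say which part of the alpha gene the mutant allele lacks, so these counts do not check the genotype. A list of 8 measured gamma delta T cell genes summed to 1256 to 3352 CPM in CD8 libraries and to 76.1 to 2776 CPM in CD4 libraries, so these genes were counted in both. Fewer cells of a type and less RNA per cell cannot be told apart in such bulk samples.

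CD8 libraries spread their V counts over most segments, and CD4 libraries put them on a few, which mostly differed between libraries. In CD8 libraries the Trbv sum was 854 to 2280 counts, the leading segment took 9.77% to 62.2% of it (median 14.3%), and 11 to 20 segments reached 1%. In CD4 libraries the Trbv sum was 1533 to 23058 counts, the leading segment took 27.8% to 89.9% (median 63.0%), and 4 to 10 segments reached 1%. The effective number of V segments, the inverse of the chance that a pair of counts comes from the same segment, was 2.49 to 16.4 in CD8 libraries (median 12.8) and 1.23 to 4.88 in CD4 libraries (median 2.14). The ranges overlapped through 2 CD8 libraries, both from vehicle-treated tumors. The 95% exact binomial interval of a share reached at most 2.48 percentage points to either side in CD8 libraries and 2.52 in CD4 libraries, and these intervals cover counting error only, since reads are not independent molecules.

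**Figure D1:**
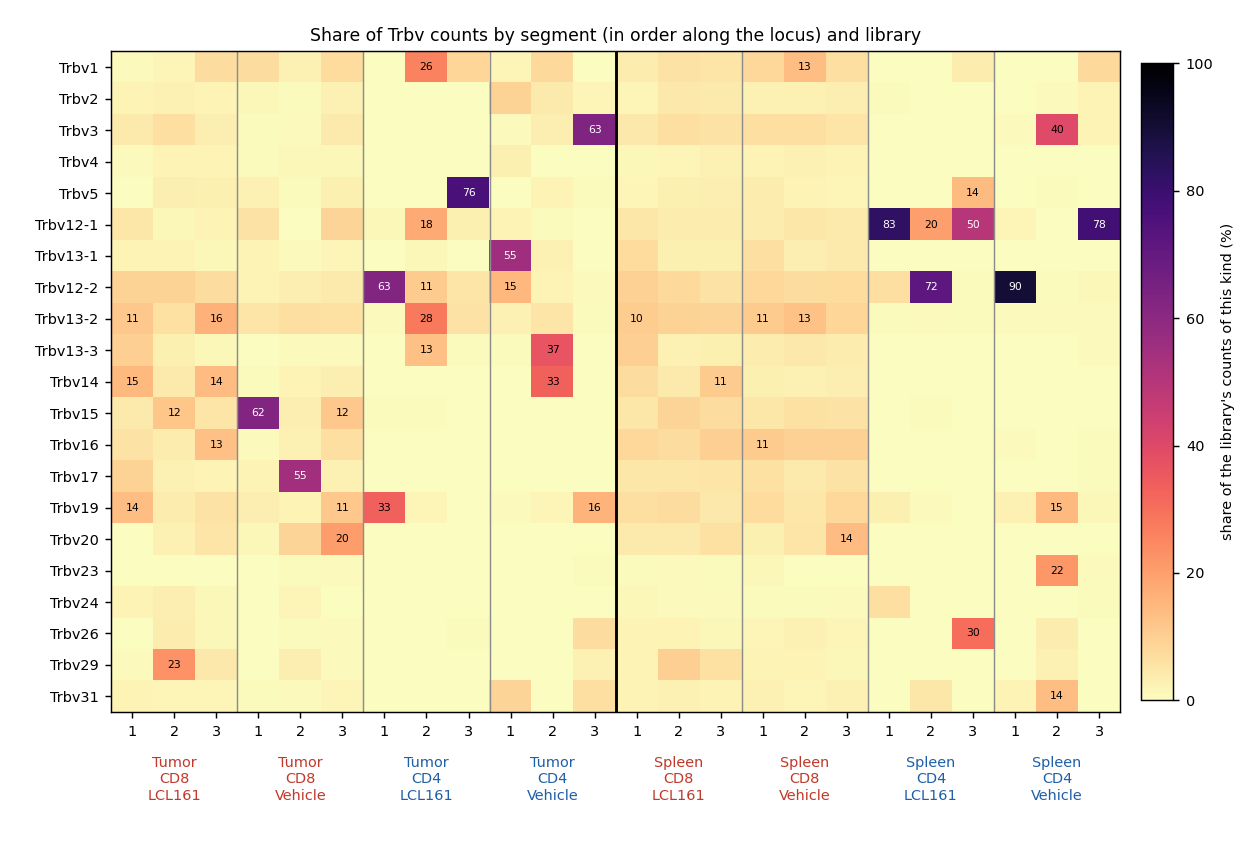
Share of each Trbv segment in the Trbv counts of its library (colour, percent), with the 24 libraries across, CD8 before CD4 within each tissue, and the segments down. The CD8 libraries of spleen are evenly pale, with no segment above 13.9%, while CD4 libraries show a few dark cells each, mostly in different rows.

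In LCL161-treated tumors, the CD8 libraries were led by Trbv14 with 14.6% (replicate 1), Trbv29 with 22.8% (replicate 2) and Trbv13-2 with 16.4% (replicate 3) of V counts. In vehicle-treated tumors, CD8 replicate 1 had 62.2% Trbv15 (95% interval 60.1 to 64.3), CD8 replicate 2 had 55.0% Trbv17 (52.9 to 57.1), and CD8 replicate 3 had 20.4% Trbv20 (18.4 to 22.4). The effective number of V segments was 11.2, 10.5 and 11.5 in tumor CD8 LCL161 libraries and 2.49, 3.12 and 10.5 in tumor CD8 vehicle libraries. The LCL161 libraries lay close together, and the vehicle libraries split into 2 that were dominated by a segment and 1 that was not. In spleen CD8 it was 15.5, 16.4 and 16.2 in LCL161 libraries and 15.8, 14.2 and 14.6 in vehicle libraries, and the groups overlapped.

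In LCL161-treated tumors, CD4 replicate 1 had 62.9% Trbv12-2 and 33.2% Trbv19, and CD4 replicate 3 had 76.2% Trbv5 (95% interval 75.0 to 77.4). CD4 replicate 2 had 27.8% Trbv13-2, 26.0% Trbv1, 17.8% Trbv12-1 and 13.0% Trbv13-3. In vehicle-treated tumors, CD4 replicate 1 had 55.3% Trbv13-1 (52.7 to 57.8) and 15.1% Trbv12-2, CD4 replicate 2 had 36.5% Trbv13-3 and 33.2% Trbv14, and CD4 replicate 3 had 63.2% Trbv3 and 15.7% Trbv19. No leading segment was shared between the 6 tumor CD4 libraries. Trbv12-1 and Trbv12-2 led 5 of the 6 spleen CD4 libraries. With LCL161, spleen CD4 replicate 1 had 82.8% Trbv12-1, replicate 2 had 71.6% Trbv12-2 and 19.9% Trbv12-1, and replicate 3 had 49.7% Trbv12-1, 30.2% Trbv26 and 14.1% Trbv5. With vehicle, spleen CD4 replicate 1 had 89.9% Trbv12-2 and replicate 3 had 78.2% Trbv12-1, while replicate 2 had 39.6% Trbv3, 21.5% Trbv23, 14.8% Trbv19 and 13.6% Trbv31. The pseudogene Trbv24, which cannot encode a working V region, made up 6.59% of V counts in spleen CD4 LCL161 replicate 1. Counted per exon base instead of per gene, the same segment led in 22 of the 24 libraries; the exceptions were spleen CD8 vehicle replicates 1 and 2, led by Trbv13-2 on that scale.

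Because reads from Trbv12-1 and Trbv12-2 may be exchanged, their sum is the safer value. It was 3.68% to 14.8% of V counts in CD8 libraries (median 11.2%) and 0.973% to 91.6% in CD4 libraries (median 39.4%). The ratio of Trbv12-1 to Trbv12-2 counts ran from 0.0909 to 2.52 in CD8 libraries and from 0.0183 to 66.7 in CD4 libraries. The ratio was far from constant in CD4 libraries, and either paralog could be nearly alone.

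By share of V counts, Trbv15, Trbv16, Trbv17 and Trbv20 were common in CD8 libraries and scarce in every CD4 library. They had medians of 5.80%, 7.42%, 4.91% and 4.82% of V counts in CD8 libraries, where they reached 1% in 12, 11, 12 and 11 of 12 libraries. In CD4 libraries their highest shares were 0.763%, 0.843%, 0.556% and 0.130%, so none reached 1% in any of 12. No V segment reached 1% in all CD4 libraries, while 7 did so in all CD8 libraries. At least 1 library held 1% or more of 21 segments among CD8 and of 17 segments among CD4. A share is relative, and a segment that takes most of a library's V counts lowers the shares of all others. By level, Trbv15 reached 6.96 CPM in a CD4 library, above its CD8 median of 3.14 CPM, and Trbv16 reached 3.69 against 4.70 CPM. The highest CD4 levels of Trbv17 and Trbv20 were 0.634 and 0.594 CPM, against CD8 medians of 2.68 and 2.76 CPM.

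**Figure D2:**
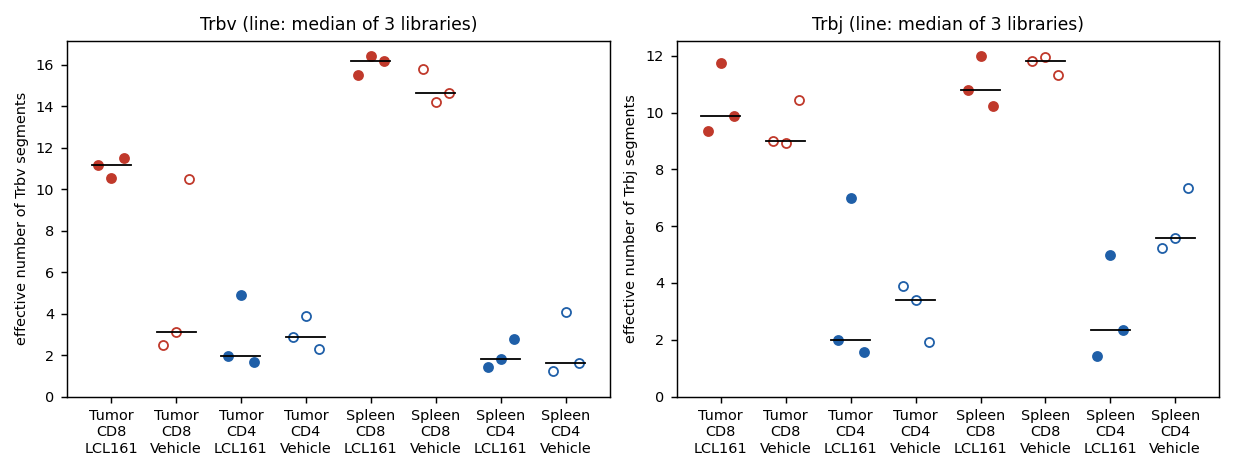
Effective number of Trbv segments and of Trbj segments in each library (points, 1 per library, with the tissue, population and treatment on the other axis). For V, tumor CD8 vehicle replicates 1 and 2, at 2.49 and 3.12, are the only CD8 libraries within the range of CD4 libraries, 1.23 to 4.88.

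How far libraries share their V segments was summarised as the overlap of shares, the sum over segments of the smaller of the shares in a pair of libraries. Within groups, the overlap of V shares was 26.4% to 86.0% over 12 pairs of CD8 libraries (median 72.8%) and 7.95% to 51.3% over 12 pairs of CD4 libraries (median 14.2%). Tumor CD8 pairs overlapped by 55.1% to 67.3% with LCL161 and by 26.4% to 48.7% with vehicle, and spleen CD8 pairs by 78.3% to 86.0% with LCL161 and 83.0% to 85.8% with vehicle. A tumor CD4 pair overlapped by 8.21% to 23.0% with LCL161 and 9.97% to 16.4% with vehicle, and a spleen CD4 pair by 22.0% to 51.3% with LCL161 and 7.95% to 9.20% with vehicle. Over all 66 CD4 pairs, across groups as well as within, the median was 11.8%. The highest overlap of any CD4 pair, 82.9%, joined spleen CD4 LCL161 replicate 1 to spleen CD4 vehicle replicate 3, both led by Trbv12-1, but their J shares overlapped by only 21.9%. Tumor CD4 vehicle replicate 3 and spleen CD4 vehicle replicate 2 overlapped by 71.2% in V and 56.0% in J, and both were led by Trbv3. Pairs of libraries share members of several pairs and are given as a description, with no test.

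J segments, which add the last part of the hypervariable loop, showed the same contrast. The Trbj sum was 684 to 1246 counts in CD8 libraries and 856 to 3433 counts in CD4 libraries. The leading J segment took 13.4% to 21.7% of it in CD8 libraries (median 15.7%) and 22.8% to 83.2% in CD4 libraries (median 42.0%), with no overlap. All 14 J segments, the pseudogene Trbj2-6 included, reached 1% of J counts in every CD8 library, against only Trbj2-7 in every CD4 library. Trbj2-6 held 2.73% to 5.26% in CD8 libraries, and how much of the J counts came from unjoined segments was not tested. Trbj2-1 and Trbj2-7 each held at least 10% of J counts in 12 of 12 CD8 libraries, and in 2 and 7 of 12 CD4 libraries. Trbj2-4 held at least 10% in 0 of 12 CD8 libraries (highest 6.36%) and in 7 of 12 CD4 libraries. The effective number of J segments was 8.93 to 12.0 in CD8 libraries and 1.42 to 7.36 in CD4 libraries, again without overlap. The interval of a J share reached at most 2.83 percentage points to either side in CD8 libraries and 3.07 in CD4 libraries.

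**Figure D3:**
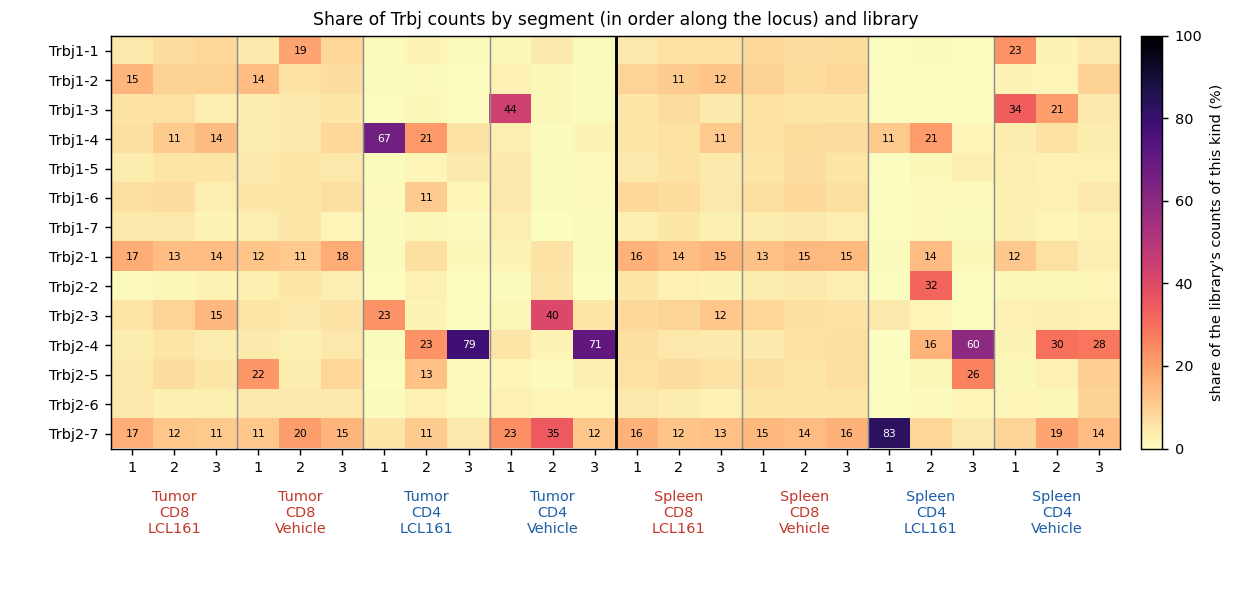
Share of each Trbj segment in the Trbj counts of its library (colour, percent), with libraries across in the same order as for Trbv and segments down. Trbj2-4 is at most 6.36% in all CD8 libraries and at least 10% in 7 CD4 libraries.

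CD4 libraries led by the same V segment could be led by different J segments. Tumor CD4 LCL161 replicate 1 had 66.8% Trbj1-4 (95% interval 64.8 to 68.7), LCL161 replicate 3 had 78.9% Trbj2-4 (76.7 to 81.0), and LCL161 replicate 2 was led by Trbj2-4 with 22.8%. Tumor CD4 vehicle replicates 1, 2 and 3 were led by Trbj1-3 with 43.8%, Trbj2-3 with 40.3% and Trbj2-4 with 70.9%. Spleen CD4 LCL161 replicates 1, 2 and 3 were led by Trbj2-7 with 83.2%, Trbj2-2 with 32.3% and Trbj2-4 with 59.5%, and spleen CD4 vehicle replicates 1, 2 and 3 by Trbj1-3 with 33.6%, Trbj2-4 with 30.0% and Trbj2-4 with 28.4%. Spleen CD4 vehicle replicate 1 paired a V effective number of 1.23 with a J effective number of 5.24, and replicate 3 paired 1.61 with 7.36. Spleen CD4 LCL161 replicate 1 paired 1.44 with 1.42. In both vehicle libraries a V segment with at least 78.2% of V counts stood beside several J segments, whereas in the LCL161 library 1 V and 1 J segment stood nearly alone.

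The use of the J clusters and of the constant genes behind them ran high in the same libraries. Trbj1 segments gave 37.8% to 49.3% of J counts in CD8 libraries and 6.70% to 70.7% in CD4 libraries. Trbc1 gave 36.1% to 43.1% of the constant gene counts in CD8 libraries and 22.3% to 59.1% in CD4 libraries. In 3 CD4 libraries Trbj1 exceeded 50% of J counts, with 70.2% in tumor LCL161 replicate 1, 62.9% in tumor vehicle replicate 1 and 70.7% in spleen vehicle replicate 1. Trbc1 exceeded 50% in the same 3 libraries, at 59.1%, 54.7% and 57.7%, and in no other of the 24.

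Per 100 constant gene counts (Trbc1 plus Trbc2), V counts were 4.98 to 12.0 in CD8 libraries (median 9.32) and 5.89 to 40.7 in CD4 libraries (median 30.6). J counts were 5.05 to 6.61 per 100 in CD8 libraries and 3.50 to 6.53 in CD4 libraries, so the ranges overlapped. D counts were 0.816 to 1.39 per 100 in CD8 libraries (median 0.990) and 0.0157 to 2.45 in CD4 libraries (median 0.231). Tumor CD4 vehicle replicate 1 stood apart from the other CD4 libraries, with the lowest V value (5.89), the highest D value (2.45) and the highest gamma delta marker sum (2776 CPM) of the 12. Leaving it out, the lowest V value of a CD4 library was 16.5, above all CD8 libraries, and the median effective number of V segments in CD4 libraries was 1.98.

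**Figure D4:**
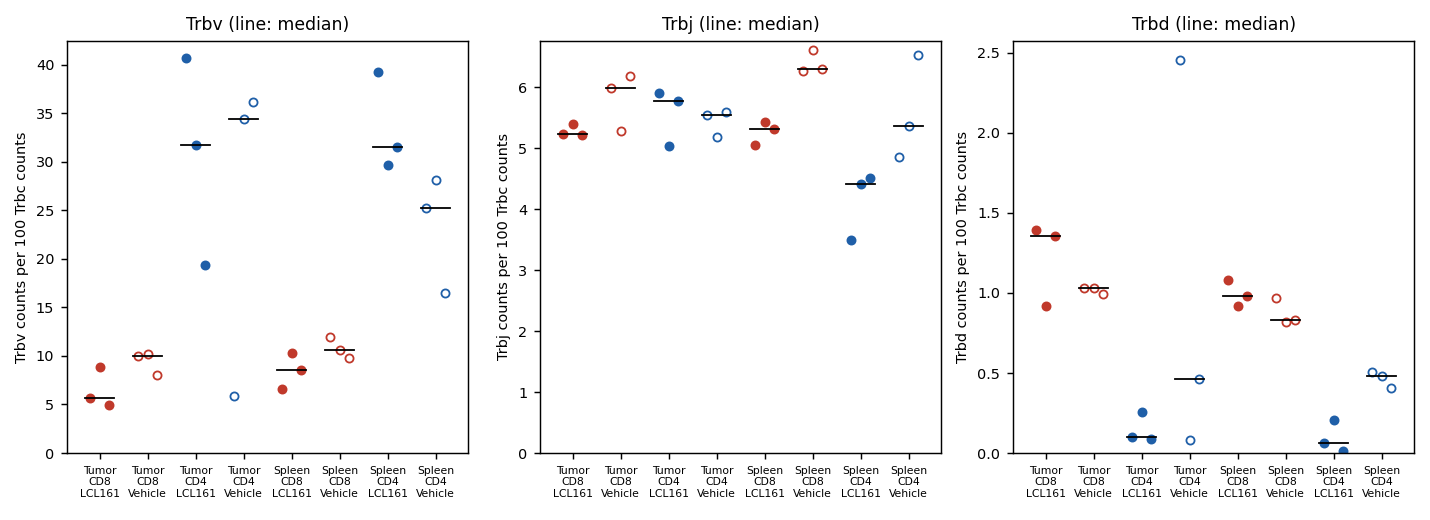
Trbv, Trbj and Trbd counts per 100 counts of Trbc1 plus Trbc2 in each library (points, 1 per library). Trbv lies at 4.98 to 12.0 in CD8 libraries, against 16.5 to 40.7 in 11 CD4 libraries and 5.89 in tumor CD4 vehicle replicate 1, and Trbj spans 3.50 to 6.61 in all 24.

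Levels were compared between groups with edgeR's quasi-likelihood test, adjusted over all 20174 genes tested, with an adjusted p under 0.05 as the threshold. The SE beside a log2 fold change was derived from this test, whose spread per gene came from all 24 libraries, not only those compared. Of the 51 members, 37 passed the filter on low counts, 5 had no count in any library (Trbv9, Trbv11, Trbv18, Trbv27 and Trbv28), and the other 9 had too few. Of the 14 not tested, 12 were pseudogenes and the others were Trbv21 and Trbv30. Over 12 contrasts, 11 members passed the threshold in 13 instances, of which 12 compared 2 groups, and in 6 of those 12 the groups did not overlap. None of the 13 passed with limma voom with sample weights, and none of the 12 that could be fitted passed when only the libraries compared were fitted. The vehicle groups serve in several comparisons, which therefore share samples. Shares of all genes given beside member counts come from edgeR and were not computed for DESeq2 or limma voom.

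LCL161 was set against vehicle first. In spleen CD4 cells, Trbj1-2, the only member of 37 tested past the threshold, fell with LCL161. Of all genes tested 0.431% passed, and 0.193% were lower. Trbj1-2 had 0, 0.0818 and 0.131 CPM in LCL161 libraries (0, 2 and 3 counts), against 1.75, 2.08 and 4.33 CPM in vehicle libraries (36, 42 and 82 counts). All 3 LCL161 libraries lay below all vehicle libraries, with a log2 fold change of -5.12 ± 0.80 (SE, n = 3 a group, adjusted p = 0.013), and the ratio of summed counts was 0.027 with a counting interval of 0.00865 to 0.0643. The groups did not overlap for 7 members, against 14.6% of all genes, with 1 higher and 6 lower, against 7.67% and 6.9% of all genes. The call was lost without LCL161 replicate 1 (-4.61, adjusted p = 0.069) and without vehicle replicate 3 (-4.63, adjusted p = 0.063), and the adjusted p ran from 1.4e-06 to 0.367 over the alternatives.

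The other segments of the first cluster did not pass in this comparison and did not all lie the same way. Trbd1 had 0.137, 0.286 and 0.0438 CPM in LCL161 libraries, against 1.16, 7.33 and 1.37 CPM in vehicle libraries, a log2 fold change of -4.33 ± 1.07 (adjusted p = 0.078). Trbj1-3 had a log2 fold change of -6.23 ± 1.41 (adjusted p = 0.058), with no overlap of the groups, and Trbj1-1 one of -4.38 (adjusted p = 0.063). Trbj1-6 and Trbj1-7 had log2 fold changes of -1.52 (adjusted p = 0.321) and -1.54 (adjusted p = 0.343), and the groups overlapped for Trbj1-7 but not for Trbj1-6. Trbj1-4 lay the other way, with 8.59, 29.3 and 1.58 CPM in LCL161 libraries and 3.01, 6.39 and 1.74 CPM in vehicle libraries, which overlapped (log2 fold change 1.82, adjusted p = 0.339). Trbj1-5 overlapped too, with 0.0457, 1.76 and 3.07 CPM in LCL161 libraries and 2.76, 2.58 and 1.11 CPM in vehicle libraries. Trbd2, of the second cluster, had 1.19, 6.30 and 0.263 CPM in LCL161 libraries and 7.66, 2.43 and 1.43 CPM in vehicle libraries, which overlapped. Trbj2-4 had 0, 22.0 and 52.5 CPM in LCL161 libraries and 1.84, 32.9 and 12.8 CPM in vehicle libraries, which also overlapped. The sum of gamma delta marker genes was also lower with LCL161, at 76.1, 198 and 112 CPM against 929, 324 and 1723 CPM in vehicle libraries. Of 8 such genes tested 1 passed as lower, against 0.193% of all genes. Within the vehicle group, Trbd1 was highest in replicate 2, where the gamma delta sum was lowest. Trbj1-2 was highest in replicate 3, where that sum was highest. Of 11 gamma chain segments 3 were lower with LCL161 in this comparison and 0 higher, with a median log2 fold change of -3.51, against 0.02 over all genes tested. The part of these cells in the values of Trbj1-2 and Trbd1 was not tested.

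In spleen CD8 cells the LCL161 response of Trbj1-2 differed from that in spleen CD4 cells. Trbj1-2 had 3.42, 4.44 and 6.48 CPM in spleen CD8 LCL161 libraries and 3.35, 2.29 and 2.62 CPM in spleen CD8 vehicle libraries, so LCL161 libraries were the higher ones, with a log2 fold change of 0.79 ± 0.57 that did not pass (adjusted p = 0.408). The difference between the LCL161 effects in spleen CD8 and CD4 was 5.92 ± 0.99 on the log2 scale (SE, adjusted p = 0.026), and Trbj1-2 was the only member past the threshold in that contrast, in which 0.292% of all genes passed and 0.0595% were higher. That call was lost without spleen CD4 vehicle replicate 3 (5.40, adjusted p = 0.053) and without spleen CD8 LCL161 replicate 3 (5.63, 0.0865). It was also lost without spleen CD8 vehicle replicate 1 (6.06, 0.067), 2 (5.79, 0.051) or 3 (5.87, 0.068), with adjusted p from 9.0e-06 to 0.0865 over the alternatives.

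No effect of LCL161 on a member passed within spleen CD8 cells. With edgeR 0 of 37 members passed, and 0 had an unadjusted p under 0.05, while 8.28% of all genes passed and 25% had such an unadjusted p. DESeq2 called 0 and limma voom 2. For 8 members all LCL161 libraries lay above all vehicle libraries and for 0 below, against 21.1% and 17.8% of all genes, or 38.9% in all. Dendritic cell markers differed there, at 338 to 591 CPM with LCL161 and 1679 to 1879 CPM with vehicle, and their part in these levels was not tested.

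In tumor CD4 cells, Trbv2 was the only member to pass, with 1 of 37 against 0.322% of all genes (0.208% lower). Trbv2 had 0.469, 0 and 0.186 CPM in LCL161 libraries, against 6.71, 24.8 and 12.2 CPM in vehicle libraries. The groups were well apart, with a log2 fold change of -5.98 ± 1.27 (SE, n = 3 a group, adjusted p = 0.0498), just under the threshold. The call held without vehicle replicate 3 and was lost without any other of the 6 libraries: without LCL161 replicate 1, 2 or 3 the value was -7.11 (adjusted p = 0.169), -5.44 (0.192) or -5.85 (0.089), and without vehicle replicate 1 or 2 it was -6.32 (0.056) or -5.34 (0.173). Under RLE scaling the adjusted p was 0.0502, and it ran from 2.9e-05 to 0.300 over the alternatives. Trbv2 did not exceed 9.07% of V counts in any CD4 library. Groups did not overlap for 5 members, against 15.2% of all genes.

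Trbd1 again lay lower with LCL161 in tumor CD4 cells, with 0.563, 0.445 and 0.0931 CPM in LCL161 libraries against 24.1, 0.864 and 2.77 CPM in vehicle libraries. The groups did not overlap, but the log2 fold change of -4.64 ± 1.01 did not pass (adjusted p = 0.055), and the highest value was that of vehicle replicate 1, the library with the highest gamma delta sum. Trbj1-4 had a log2 fold change of 4.35 ± 1.03 (adjusted p = 0.069). Gamma delta markers summed to 300, 717 and 122 CPM in tumor CD4 LCL161 libraries and to 2776, 546 and 217 CPM in vehicle libraries, which overlapped. Monocyte and macrophage markers summed to 572 to 1141 CPM with LCL161 and 2022 to 4892 CPM with vehicle, and the part of either cell type was not tested. The difference of the LCL161 effects (tumor CD4 minus spleen CD4) passed for 0 of 37 members with edgeR (7 at an unadjusted p under 0.05, 1 with DESeq2, 0 with limma voom), against 0.00991% of all genes (10.2% unadjusted). The difference between tumor CD8 and CD4 passed with edgeR for 0 members (10 unadjusted) and for 0% of all genes (5.53% unadjusted). DESeq2 called 3 members and limma voom 0 there, with no share of all genes for either.

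In tumor CD8 cells, 0 of 37 members passed for LCL161 with edgeR, 2 had an unadjusted p under 0.05, and 0 passed with DESeq2 or limma voom, against 0.248% of all genes (10.7% unadjusted). Groups did not overlap for 4 members, against 23.5% of all genes. Trbv15, the segment that led vehicle replicate 1, had 2.15, 9.41 and 2.58 CPM in LCL161 libraries and 57.9, 3.05 and 7.95 CPM in vehicle libraries. Trbv17, which led vehicle replicate 2, had 4.66, 2.09 and 1.01 CPM in LCL161 libraries and 2.05, 51.0 and 1.88 CPM in vehicle libraries. In each case 1 vehicle library was high and the other libraries overlapped. Trbd1 had 9.56, 5.16 and 7.80 CPM with LCL161 and 6.74, 6.43 and 4.89 CPM with vehicle. The LCL161 effect differed between tumor and spleen CD8 for 0 members with edgeR (0 at an unadjusted p under 0.05, and 0 with DESeq2 or limma voom), against 0.0248% of all genes (9.04% unadjusted).

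CD8 cells were next set against CD4 cells of vehicle-treated mice. In tumor, Trbv20, Trbv17 and Trbv15 were higher in CD8 and Trbv3 lower, which is 4 of 37 members against 4.07% of all genes (1.7% higher and 2.37% lower). Trbv20 had 1.29, 8.30 and 14.1 CPM in CD8 libraries, against 0.0965, 0 and 0.0401 CPM in CD4 libraries, with a log2 fold change of 7.25 ± 1.35 (SE, n = 3 a group, adjusted p = 0.0045). Only 3 counts of Trbv20 were seen in the 3 tumor CD4 vehicle libraries, and the ratio of summed counts was 173 with a counting interval of 58.9 to 841. Every CD8 library lay above every CD4 library, and no left-out library ended the call, although the alternatives' adjusted p ran from 4.1e-06 to 0.305. Trbv17 had 2.05, 51.0 and 1.88 CPM in CD8 libraries and 0, 0.406 and 0.0401 CPM in CD4 libraries, and Trbv15 had 57.9, 3.05 and 7.95 CPM in CD8 libraries and 0, 0.203 and 0.803 CPM in CD4 libraries. Neither pair of groups overlapped, with log2 fold changes of 6.96 ± 1.42 (adjusted p = 0.010) and 6.01 ± 1.51 (adjusted p = 0.029). Without CD8 replicate 2, Trbv17 had 3.75 (adjusted p = 0.069, range over alternatives 2.1e-06 to 0.467). Trbv15 had 3.98 (0.208) without CD8 replicate 1, 5.48 (0.096) without CD4 replicate 1 and 5.79 (0.106) without CD4 replicate 2, with a range of 7.8e-05 to 0.884.

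Trbv3 had 0.491, 0.854 and 2.71 CPM in tumor CD8 vehicle libraries and 0.675, 21.03 and 407 CPM in tumor CD4 vehicle libraries, which overlapped. Its log2 fold change of -6.72 ± 1.82 (adjusted p = 0.043) came largely from CD4 replicate 3, without which it was -2.997 (0.230). Without CD8 replicate 1, 2 or 3 it was -6.30 (0.206), -6.44 (0.145) or -7.68 (0.118), and with LCL161 libraries in place of vehicle the sign turned to 2.81 (0.540), so the range was 0.00026 to 0.540. Among all 37 members, groups did not overlap for 11, against 25.8% of all genes, with 8 higher and 3 lower in CD8, against 12% and 13.8%. Trbd1 overlapped, with 6.74, 6.43 and 4.89 CPM in CD8 libraries and 24.1, 0.864 and 2.77 CPM in CD4 libraries. Gamma delta markers summed to 2754 to 3297 CPM in tumor CD8 vehicle libraries and 217 to 2776 CPM in tumor CD4 vehicle libraries, and their part in the V levels was not tested. Trbv17 had no count in any of the 3 tumor CD4 LCL161 libraries.

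In spleen, 2 of 37 members passed between CD8 and CD4 vehicle libraries, Trbv20 higher in CD8 and Trbv23 lower, against 11.4% of all genes (5.32% higher and 6.09% lower). Trbv20 had 2.06, 2.82 and 7.18 CPM in CD8 libraries, against 0, 0.594 and 0 CPM in CD4 libraries, a log2 fold change of 4.29 ± 1.13 (adjusted p = 0.018) with no overlap. It was lost without CD8 replicate 3 (3.58, 0.078), CD4 replicate 1 (3.71, 0.079) or CD4 replicate 3 (3.74, 0.066), with a range of 0.0020 to 0.215. Trbv23 had 0.984, 0.0440 and 0.146 CPM in CD8 libraries and 0.0485, 124 and 1.21 CPM in CD4 libraries, which overlapped. Its log2 fold change of -6.71 ± 1.91 (adjusted p = 0.028) became -0.67 (0.858) without CD4 replicate 2, and was -8.71 (0.059), -6.18 (0.107) or -6.33 (0.113) without CD8 replicate 1, 2 or 3. With LCL161 libraries in place of vehicle it was 1.78 (0.614), and the range was 0.012 to 0.858. The constant genes Trbc1 and Trbc2 were both lower in CD8 in this comparison, with a median log2 fold change of -1.54, and groups did not overlap for 9 members, against 36.3% of all genes. Of 6 conventional dendritic cell markers 5 were higher in CD8 here, and they summed to 1679 to 1879 CPM in CD8 libraries and 96.4 to 263 CPM in CD4 libraries. Their part in the V levels was not tested.

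**Figure D5:**
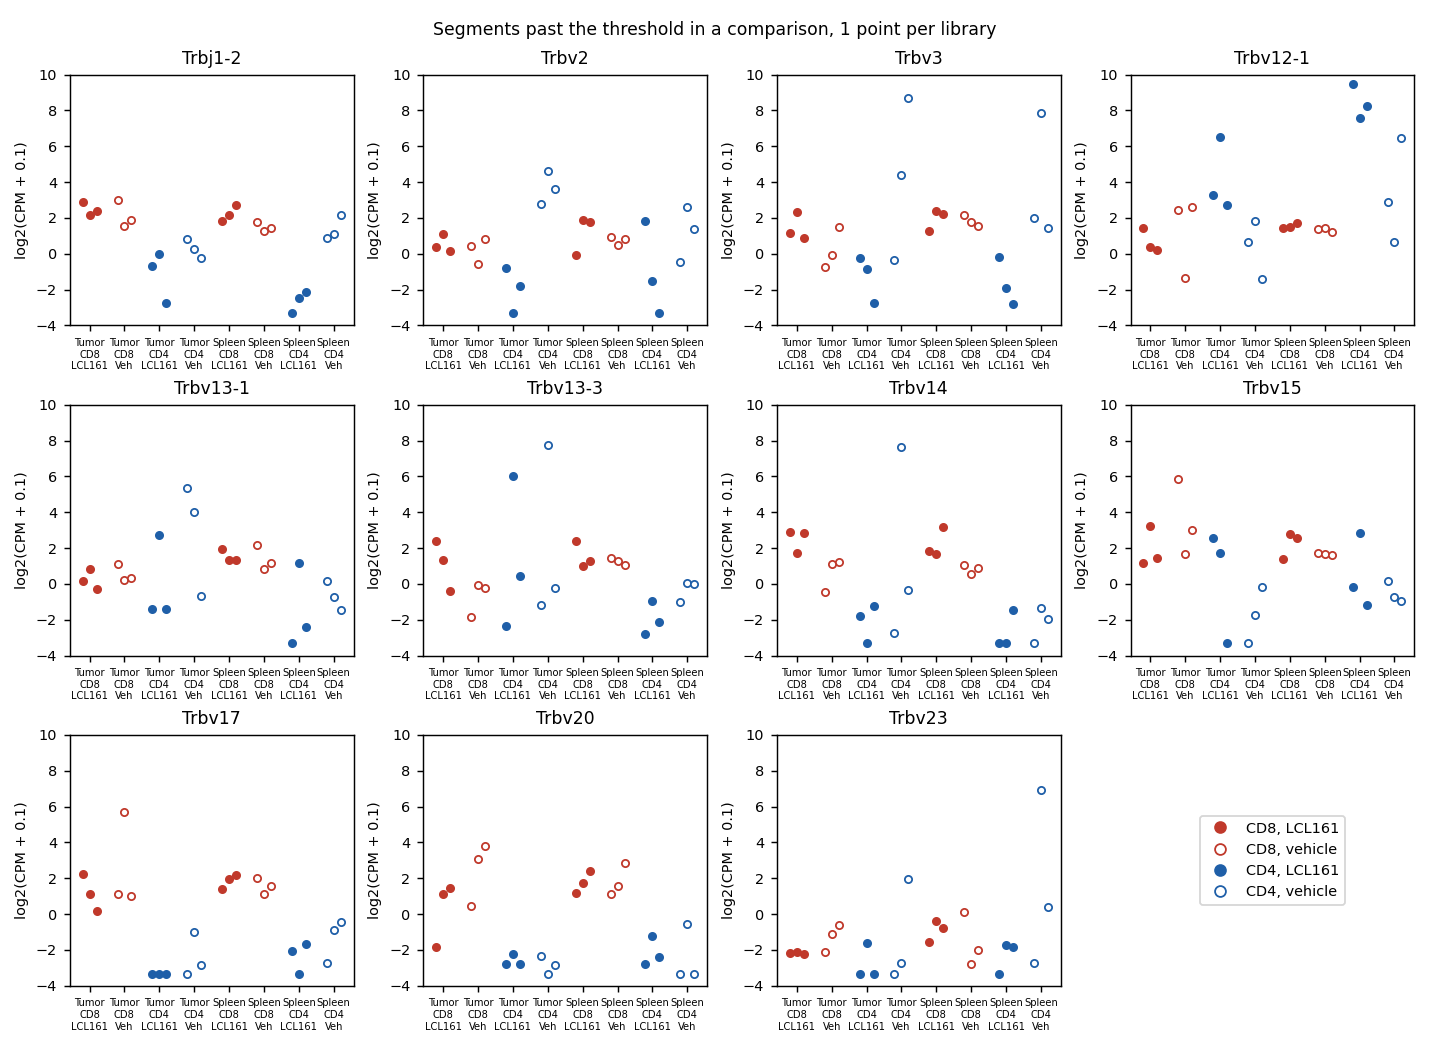
Levels of members past the threshold, as log2(CPM + 0.1), in every library (points, 3 per group; red CD8, blue CD4; filled LCL161, open vehicle). Trbj1-2 in spleen CD4 LCL161 and Trbv20 in every CD4 group lie near the bottom, while Trbv3, Trbv13-3, Trbv14 and Trbv23 each show 1 or 2 CD4 libraries far above the rest.

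Last, tumor was set against spleen in vehicle-treated mice. In CD4 cells Trbv14, Trbv13-1 and Trbv13-3 were higher and Trbv12-1 lower in tumor, 4 of 37 members against 16.4% of all genes (9.61% higher and 6.78% lower), and the groups overlapped for each of the 4. Trbv14 had 0.0482, 199 and 0.682 CPM in tumor libraries and 0, 0.297 and 0.158 CPM in spleen libraries, with a log2 fold change of 8.73 ± 1.99 (SE, n = 3 a group, adjusted p = 0.0060). Without tumor replicate 2 it was 1.25 (0.560), and the range was 0.0012 to 0.827. Trbv13-3 had 0.338, 220 and 0.762 CPM in tumor libraries and 0.388, 0.941 and 0.898 CPM in spleen libraries, with 6.62 ± 2.04 (adjusted p = 0.033). Only tumor replicate 2 was high, and without it the value turned to -0.44 (0.895). Without spleen replicate 1, 2 or 3 it was 6.29 (0.123), 6.82 (0.077) or 6.76 (0.0995), with a range of 0.018 to 0.895.

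Trbv13-1 had 40.9, 16.1 and 0.522 CPM in tumor libraries of vehicle-treated CD4 cells, against 1.02, 0.495 and 0.264 CPM in their spleen libraries, so 2 of 3 tumor libraries stood above all spleen libraries. Its log2 fold change of 4.99 ± 1.43 (adjusted p = 0.023) was 5.59 (0.063), 4.85 (0.065) or 4.62 (0.091) without spleen replicate 1, 2 or 3 and 3.77 (0.086) without tumor replicate 1, with a range of 0.00065 to 0.403. Trbv12-1 had 1.45, 3.40 and 0.281 CPM in tumor libraries and 7.18, 1.49 and 89.2 CPM in spleen libraries. Its log2 fold change of -4.28 ± 1.31 (adjusted p = 0.032) was -1.40 (0.459) without spleen replicate 3 and -4.22 (0.086), -5.31 (0.051) or -3.75 (0.095) without tumor replicate 1, 2 or 3, with a range of 0.0030 to 0.459. Its paralog Trbv12-2 had 11.2, 13.6 and 6.02 CPM in tumor libraries and 393, 4.11 and 1.74 CPM in spleen libraries, and did not pass (-3.70 ± 1.63, adjusted p = 0.126). Groups did not overlap for 4 members, against 31% of all genes. Markers of other cells moved in the same CD4 libraries. B cell markers, 6 of 6 lower in tumor, summed to 93.0 to 645 CPM in tumor and 3182 to 5400.5 CPM in spleen libraries, and monocyte and macrophage markers, 6 of 6 higher, summed to 2022 to 4892 CPM in tumor and 49.4 to 168 CPM in spleen libraries. Their part in the V levels was not tested.

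In CD8 cells, 0 of 37 members passed between tumor and spleen with edgeR, 2 had an unadjusted p under 0.05, DESeq2 called 0 and limma voom 1, against 14.8% of all genes (27.9% unadjusted). For 12 members the groups did not overlap, against 47.8% of all genes, with 7 higher and 5 lower in tumor, against 25.3% and 22.4%. Trbd1 had 6.74, 6.43 and 4.89 CPM in tumor CD8 vehicle libraries and 3.49, 2.25 and 2.52 CPM in spleen CD8 vehicle libraries, with no overlap and a log2 fold change of 1.13 ± 0.83 that did not pass (adjusted p = 0.415). Trbv13-2 had 4.999, 5.98 and 4.19 CPM in tumor libraries and 7.20, 6.47 and 4.41 CPM in spleen libraries, which overlapped. In CD8 cells too, 6 of 6 B cell markers were lower in tumor and 6 of 6 monocyte and macrophage markers higher, with median log2 fold changes of -6.06 and 3.66.

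Other genes of the pathway gave a backdrop. Of 6 CD3 and partner chain genes, which carry the receptor's signal or pair with the beta chain, 1 was higher with LCL161 in spleen CD8 cells. There 4.1% of all genes were higher. In the other 3 LCL161 comparisons 0 of the 6 passed, against 0.248% to 0.431% of all genes. In CD8 against CD4 cells, 1 of the 6 was lower in vehicle tumor (median log2 fold change 0.17) and 4 in vehicle spleen (median -0.90), against 2.37% and 6.09% of all genes, whose medians were -0.031 and -0.035. Of a list of 7 recombination genes, such as Rag1, Rag2 and Dntt, 5 were tested and 0 passed in any LCL161 comparison. In those comparisons 0.248% to 8.28% of all genes passed. Trypsinogen genes lie inside the beta locus, and of 4 tested, 4 were higher in tumor than in spleen in CD4 cells and 3 in CD8 cells. Their median log2 fold changes were 6.58 and 5.11, against 0.00 and 0.03 over all genes tested, of which 9.61% and 7.95% were higher. Pancreatic acinar cell markers moved with them, as 3 of 4 were higher in tumor in CD4 cells and 3 of 4 in CD8 cells, with medians of 5.60 and 7.35. They summed to 19.9 to 41.1 CPM in tumor CD4 vehicle libraries and 10.7 to 14.4 CPM in spleen CD4 vehicle libraries. Cela1 made nearly all of that spleen sum, with 10.7, 11.1 and 14.4 CPM, and had 7.86, 11.3 and 12.0 CPM in the tumor libraries. The part of acinar RNA was not tested. Of 8 tested delta chain segments, 6 were higher in CD8 than in CD4 cells of vehicle tumor and 3 in vehicle spleen, and of 11 gamma chain segments 3 and 1 were, against 1.7% and 5.32% of all genes. Of 79 tested alpha chain segments, 9 were higher and 0 lower in CD8 than in CD4 cells of vehicle tumor, and 8 were higher and 8 lower in vehicle spleen. Of all genes, 1.7% were higher and 2.37% lower in tumor, and 5.32% and 6.09% in spleen. Their median log2 fold changes, -2.13 in tumor and -2.83 in spleen, had the opposite sign to the calls in tumor. With edgeR 0 of the 79 passed in any LCL161 comparison, against the same 0.248% to 8.28% of all genes.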

How the data were processed

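Total RNA of sorted cells was prepared with a Qiagen kit and Illumina libraries, per the labels' protocols; reads were trimmed with cutadapt and aligned to GRCm38 with STAR 2.7.3a, per the submitters' processing notes. The authors deposited 1 table of expected counts per gene for 24 libraries; 52.7% of non-zero values are not whole. The sources used here do not name the counting tool, its annotation or its strand setting. Coordinates and sequences came from GENCODE M21 (53522 of 55025 symbols matched). Counts were rounded and tested with edgeR 4.0.16 in R 4.3.3: filterByExpr (minimum count 10), TMM (factors 0.94 to 1.05), and a robust quasi-likelihood fit with 8 group means (16 residual degrees of freedom), adjusted by Benjamini-Hochberg within each of 12 contrasts. Levels are CPM on scaled sizes. Shares, exact binomial intervals, overlaps and figures used Python 3.11.15 with scipy 1.17.1. Named members passed a test, led in mean level, are D segments, or were dominant in a library (at least 10% of V counts and 3 times the segment's median). Alternatives were RLE or no scaling, other filters, DESeq2 1.42.0, limma 3.58.1, only the libraries compared, LCL161 in place of vehicle, replicate blocks, and each library left out. Replicates of a group all differed by more than counting error, and every library was used. Members and lists were chosen with earlier results of these data known.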

Additional observations from a re-analysis of the deposited data

Results flagged for a closer look

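The response of Trbj1-2 to LCL161 differed between spleen CD8 and spleen CD4 cells by 5.92 on the log2 scale in edgeR's test of the difference itself (adjusted p = 0.026). The call was lost in 5 of 12 fits with a library left out, with limma voom, and with only the libraries compared. The spleen CD4 LCL161 values rest on 0, 2 and 3 counts. LCL161 libraries held 3.42, 4.44 and 6.48 CPM of Trbj1-2 in spleen CD8 cells and 0, 0.0818 and 0.131 CPM in spleen CD4 cells, while vehicle libraries held 3.35, 2.29 and 2.62 CPM in spleen CD8 cells and 1.75, 2.08 and 4.33 CPM in spleen CD4 cells.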

How the results depend on the processing

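Of the 13 calls, 12 held under RLE scaling, 13 without scaling, 13 with at least 1 CPM in 3 libraries, 9 without a filter and 10 with DESeq2, which gave no adjusted p for the other 3; 0 held with limma voom. Members called, by comparison, were as follows, and the share of all genes called was not computed for the alternatives. LCL161 in spleen CD4 called 1, against 0 with only the libraries compared, 0 with limma voom and 6 with DESeq2 (0 to 2 with a library left out). LCL161 in spleen CD8 called 0, against 1 with only those libraries and 2 with limma voom. LCL161 in tumor CD4 called 1, against 0 under RLE, no filter, a replicate block, only those libraries or limma voom, 2 without scaling or at 1 CPM, and 7 with DESeq2 (0 to 4). CD8 against CD4 in spleen called 2, against 10 with LCL161 libraries, 1 under either replicate block or limma voom, 4 with only those libraries and 6 with DESeq2 (0 to 3). CD8 against CD4 in tumor called 4, against 2 under either block, 0 with only those libraries, 1 with limma voom and 8 with DESeq2 (2 to 6). Tumor against spleen in CD4 called 4, against 2 without a filter or under either block, 7 with LCL161 libraries, 0 with only those libraries and 1 with limma voom (2 to 5). Tumor against spleen in CD8 called 0, against 4 with only those libraries and 1 with limma voom. The difference between tumor and spleen CD4 called 0, against 1 with DESeq2, that between tumor CD8 and CD4 0, against 3, and that between spleen CD8 and CD4 1, against 0 with only those libraries or limma voom and 5 with DESeq2 (0 to 1). The sign turned for Trbv23 (1.78) and Trbv3 (2.81) with LCL161 libraries, and for Trbv13-3 (-0.44) without tumor CD4 vehicle replicate 2, while leaving out any other library gave it up to 7.20. The causes were not tested.

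Same-numbered libraries correlated at -0.168 to 0.099 in their deviations, under the limit of 0.1 set for pairing. The libraries correlated were LCL161 against vehicle, where 1 mouse cannot give both, or vehicle libraries of unlike tissue or population. LCL161 libraries were not correlated across tissues or populations, so the correlations cannot decide on pairing there. The labels do not say whether a number marks a mouse, and the numbers were not used as pairs. A replicate block over all libraries kept 7 of 13 calls and lost Trbv2 (LCL161, tumor CD4), Trbv23 (CD8 against CD4, spleen), Trbv15 and Trbv3 (CD8 against CD4, tumor), and Trbv12-1 and Trbv13-3 (tumor against spleen, CD4). A block within treatment kept 5 of 10 and lost the same ones but Trbv2, whose comparison it cannot fit. Each library correlated best with its own number only for CD8 against CD4 in spleen and tumor against spleen in CD8, both in vehicle libraries. That is a hint from the data and not the design. For tumor against spleen in vehicle CD4 no library did, and number 3 had -0.168 with its own number and 0.271 with another. V shares give a further hint: tumor CD8 LCL161 libraries 1, 2 and 3 overlapped by 78.1%, 76.3% and 81.9% with the spleen CD8 LCL161 library of their number, against at most 68.1%, 68.2% and 73.4% with the others, and vehicle 3 by 77.2% against 67.2%, but vehicle 1 and 2 by only 40.3% and 42.8% against 42.5% and 47.6%. Median V overlap was 76.8% over same-numbered CD8 pairs of a treatment and 64.4% over other CD8 pairs across groups, and 17.02% and 10.9% in CD4. The other pairs include those of unlike treatment, so these medians differ in more than the number. Pairing by number is thus possible and was not settled. The effective number of V segments kept its order in the alternatives run, with medians of 12.3 to 16.0 in CD8 and 1.98 to 3.13 in CD4 libraries. Low counts of Trbd (7 in the lowest library) limit its precision.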
